A study of Mus musculus with 16 samples.

Results

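Cholesterol synthesis and sterol handling was followed in mouse liver through a fixed list of 30 genes, of which 26 were measured among the 30142 genes tested. The members were chosen by name, with earlier results of these data known. Counts of members set beside the shares of all genes are therefore descriptions and not independent support. A gene entered if a probe set of the array carried its symbol alone. Its probe set with the highest mean over the 16 arrays was used. The measured members were 15 enzymes of cholesterol synthesis, 4 genes of sterol sensing and control, and 7 genes of sterol transport, esterification and uptake. Msmo1 and Tm7sf2 lay only in probe sets that carry several symbols, and Acat2 and Soat2 were not matched to a probe set, so these 4 were not analysed here.

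Liver RNA came from WT mice with Pparafl/fl alleles and from mice with hepatocyte-specific disruption of Ppara, written Ppara△Hep, the gene of the fatty acid-sensing nuclear receptor PPARα. Each genotype was taken 12 h after partial hepatectomy (PHx), the surgical removal of part of the liver after which the remainder regrows, or 12 h after a sham operation. This gave 4 groups of 4 Affymetrix arrays: Pparafl/fl sham, Pparafl/fl PHx, Ppara△Hep sham and Ppara△Hep PHx. The driver of the deletion, the extent of the resection and the age and sex of the mice are not stated in the sources used here. Nothing in the labels ties each array to its own animal, so a p-value here reflects the variation among arrays of a group, and part of that may be technical. Arrays are numbered 1 to 4 within a group as names only.

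Cells make cholesterol from acetyl-CoA through mevalonate, farnesyl pyrophosphate, squalene and lanosterol, and the liver is a main site of this synthesis. The transcription factor SREBP2, encoded by Srebf2, switches on most genes of the pathway. When sterols are plentiful, the Insig proteins hold SREBP2 and its escort Scap in the endoplasmic reticulum, and when sterols are scarce the escort carries SREBP2 to the Golgi, where it is cut and released to the nucleus.

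At 12 h after PHx the mRNAs of the synthesis pathway were lower along nearly its whole length in both genotypes. In Pparafl/fl livers 14 of 15 enzymes fell and none rose (limma, Benjamini-Hochberg adjusted p below 0.05), with a median log2 difference of -1.09 against -0.04 over all genes tested. In Ppara△Hep livers 15 of 15 fell, with a median of -1.18 against 0.01 over all genes. A filter on low levels kept all 26 measured members and 18849 genes. Over those genes the medians were -0.11 in Pparafl/fl and -0.05 in Ppara△Hep. Among all 30142 genes, 20.8% were called lower and 11.9% higher in Pparafl/fl livers, and 17.5% lower and 14.8% higher in Ppara△Hep livers. The members were chosen with earlier results of these data known, so these shares are context and not a test. With each array's median subtracted these splits moved from 6271 lower and 3597 higher genes to 13134 and 2286 in Pparafl/fl, and from 5273 and 4461 to 13211 and 2139 in Ppara△Hep, while the enzyme counts stayed at 14 and 15 lower. Over all 26 members, 18 fell and 2 rose in Pparafl/fl, with a median of -0.80, and 20 fell and 2 rose in Ppara△Hep, with a median of -0.97. These are bulk tissue values, in which fewer cells of a type and less RNA per cell cannot be told apart. The other 11 members gave a mixed picture: 4 fell and 2 rose in Pparafl/fl, and 5 fell and 2 rose in Ppara△Hep.

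**Figure D1:**
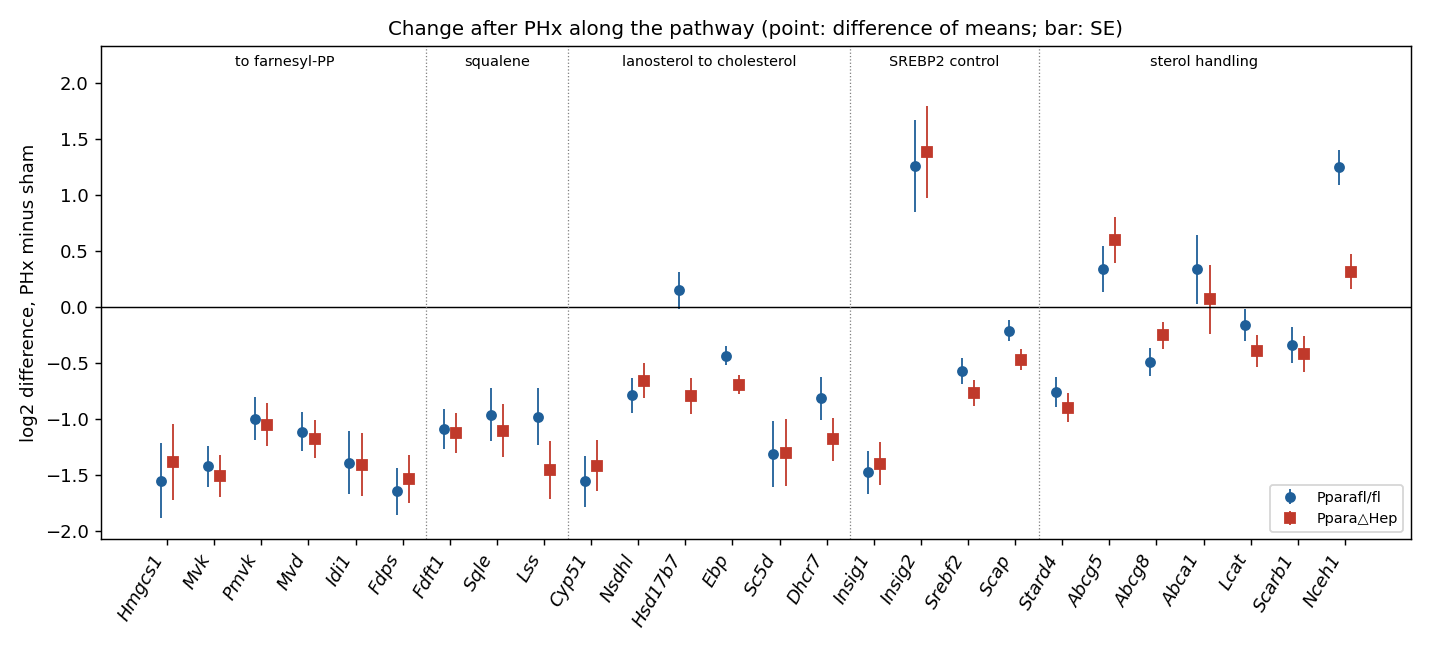
Log2 difference of PHx against sham for each of the 26 measured members, in pathway order, in Pparafl/fl (circles) and Ppara△Hep livers (squares); bars are the SE from limma and dotted lines part the steps. The 6 early enzymes lie between -0.996 and -1.65, and Hsd17b7 lies at 0.15 in Pparafl/fl and -0.79 in Ppara△Hep. Insig2, Abcg5, Abca1 and Nceh1 lie above 0 in both.

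The arrays of a group were alike over all genes, with Pearson's r between 0.983 and 0.993 for pairs of arrays within a group, and no 2 were identical. Levels of Ppara itself were 6.45, 7.02, 6.99 and 6.77 in the Pparafl/fl sham arrays and 6.29, 6.43, 6.43 and 6.05 in the Ppara△Hep sham arrays. After PHx they were 6.97, 6.08, 5.68 and 7.24 in Pparafl/fl and 6.26, 5.02, 5.28 and 4.70 in Ppara△Hep. Every Ppara△Hep sham array was below every Pparafl/fl sham array, while the PHx groups overlapped, and the genotype difference was called in neither (limma adjusted p = 0.681 after sham and 0.326 after PHx). The Ppara level in Ppara△Hep was 70.5% of Pparafl/fl after sham and 44.4% after PHx. With PHx, Ppara changed by -0.98 ± 0.33 (SE) in Ppara△Hep and was called lower, with overlapping arrays (limma adjusted p = 0.035). In Pparafl/fl it differed by -0.32 ± 0.33, not called (limma adjusted p = 0.498). Whether the probe set lies outside the deleted part of the gene, and how much signal other cells than hepatocytes give, was not tested. The 10 hepatocyte markers, all measured, had array means of 10.84 to 11.001 in Pparafl/fl sham, 10.76 to 10.85 in Pparafl/fl PHx, 10.88 to 10.98 in Ppara△Hep sham and 10.74 to 10.89 in Ppara△Hep PHx, and 4 of 10 fell with PHx in each genotype. Some markers of Kupffer cells, sinusoidal endothelium and stellate cells were also called lower with PHx. In Pparafl/fl these were 3 of 8 for Kupffer cells, 5 of 8 for sinusoidal endothelium and 3 of 7 for stellate cells. In Ppara△Hep they were 6 of 8, 5 of 8 and 3 of 7. In addition 1 endothelial marker rose in each genotype. Of all genes, 20.8% were called lower with PHx in Pparafl/fl and 17.5% in Ppara△Hep. The array means of the Kupffer list ran from 5.02 to 5.58 in Pparafl/fl sham, 4.73 to 5.12 in Pparafl/fl PHx, 5.20 to 5.71 in Ppara△Hep sham and 4.63 to 5.22 in Ppara△Hep PHx. For the endothelial list the ranges in the same order were 5.55 to 5.65, 5.20 to 5.39, 5.50 to 5.60 and 4.996 to 5.24, and for the stellate list 4.60 to 4.76, 4.34 to 4.45, 4.59 to 4.88 and 4.09 to 4.51. Lists of other cell types did not all move this way. For cholangiocytes the median array mean went from 3.09 after sham to 2.87 after PHx in Pparafl/fl, and from 3.07 to 3.16 in Ppara△Hep. For neutrophils it went from 3.12 to 2.96 and from 2.92 to 2.98. For T, NK and B cells it went from 2.25 to 2.18 and from 2.207 to 2.212. The erythroid list went from 5.08 to 4.77 and from 5.19 to 4.88, and the adipocyte list from 1.91 to 1.83 and from 1.79 to 1.90. Antigenomic background probe sets read 1.19 to 1.29 on sham and 0.97 to 1.09 on PHx arrays. The part of cell makeup and of background in the PHx results was not tested.

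The early steps carry acetyl-CoA units to farnesyl pyrophosphate, and all 6 of their measured enzymes fell in both genotypes, with medians of -1.41 in Pparafl/fl and -1.40 in Ppara△Hep. Hmgcs1, the cytosolic HMG-CoA synthase that supplies the pathway, read 9.85, 9.94, 9.74 and 9.71 on the Pparafl/fl sham arrays and 8.77, 8.07, 7.83 and 8.39 after PHx. In Ppara△Hep livers it read 9.88, 9.42, 9.98 and 9.82 after sham and 8.38, 9.41, 8.62 and 7.16 after PHx. Every PHx array was below every sham array of its genotype, although Ppara△Hep PHx array 2, at 9.41, lay just under the lowest sham array, at 9.42. The log2 difference was -1.55 ± 0.34 (SE) in Pparafl/fl, 34.2% of the sham level, and -1.38 ± 0.34 in Ppara△Hep, 38.3% (limma adjusted p = 0.00306 and 0.00579).

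Mevalonate kinase, encoded by Mvk, read 5.86, 5.84, 6.000 and 5.91 in Pparafl/fl sham and 4.80, 4.37, 4.05 and 4.70 in Pparafl/fl PHx arrays. The Ppara△Hep values were 6.01, 5.68, 6.29 and 6.09 after sham and 4.63, 4.90, 4.51 and 3.998 after PHx. No PHx array reached a sham array in either genotype, and the level after PHx was 37.3% of sham in Pparafl/fl and 35.1% in Ppara△Hep. The next enzymes, Pmvk and Mvd, which phosphorylate and decarboxylate the product, also fell: Pmvk changed by -0.996 ± 0.19 and -1.05 ± 0.19, and Mvd by -1.11 ± 0.17 and -1.18 ± 0.17, in Pparafl/fl and Ppara△Hep. Pmvk was the 1 enzyme of the 15 that was called lower in Ppara△Hep although its arrays overlapped, with sham values of 6.33, 6.04, 6.84 and 6.85 and PHx values of 5.34, 6.07, 5.33 and 5.14. Idi1, which interconverts the isoprenoid building blocks, changed by -1.39 ± 0.28 and -1.41 ± 0.28.

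Fdps, the synthase of farnesyl pyrophosphate, had the lowest level relative to sham of the 26 members in both genotypes. Its values were 8.59, 8.51, 8.54 and 8.50 in Pparafl/fl sham and 7.21, 6.57, 6.74 and 7.04 in Pparafl/fl PHx arrays. In Ppara△Hep they were 8.54, 8.26, 8.84 and 9.09 after sham and 7.37, 7.66, 6.97 and 6.60 after PHx. No PHx array reached a sham array, and 31.9% of the sham level was left in Pparafl/fl and 34.5% in Ppara△Hep (limma adjusted p = 3.95e-05 and 7.01e-05).

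**Figure D2:**
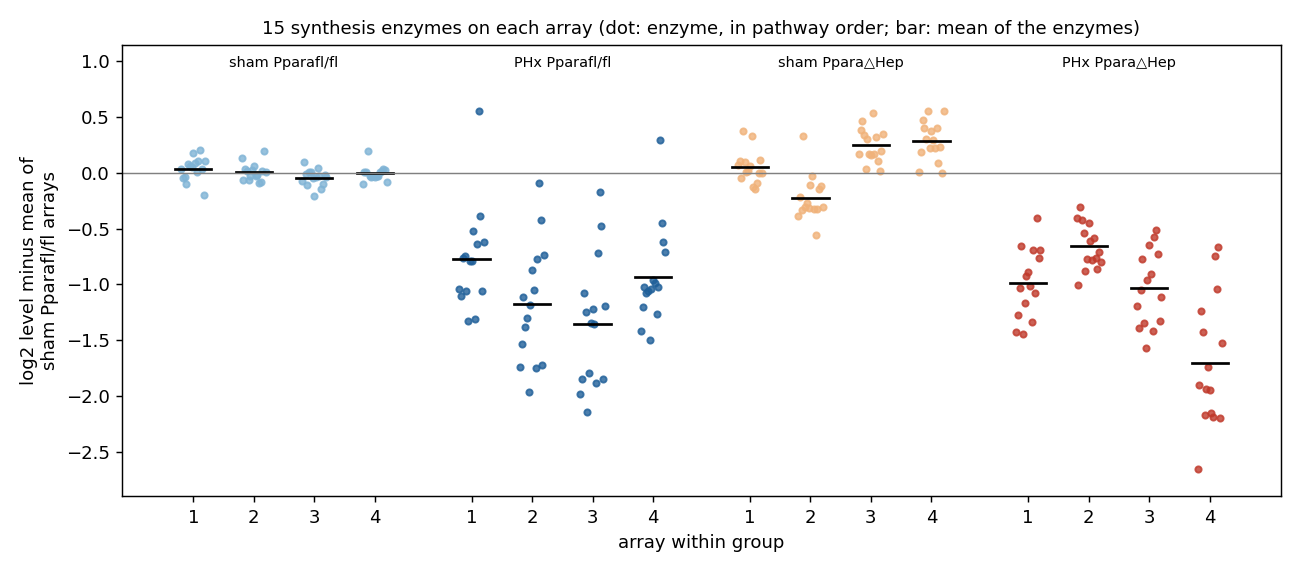
Log2 level of each of the 15 synthesis enzymes minus its mean over the Pparafl/fl sham arrays (dots, in pathway order), on each of the 16 arrays, with a bar at the mean of the enzymes. The bars lie between -0.04 and 0.04 in Pparafl/fl sham, between -1.35 and -0.77 in Pparafl/fl PHx, and lowest, at -1.70, on Ppara△Hep PHx array 4.

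Squalene formation, its oxidation and its closure to lanosterol are the committed steps toward sterols, and all 3 of their enzymes fell in both genotypes. Squalene synthase, Fdft1, changed by -1.09 ± 0.18 in Pparafl/fl and -1.12 ± 0.18 in Ppara△Hep. Squalene epoxidase, Sqle, read 7.63, 7.52, 7.25 and 7.42 in Pparafl/fl sham and 6.66, 6.58, 6.24 and 6.49 in Pparafl/fl PHx arrays, against 7.52, 7.35, 7.62 and 7.83 after sham and 6.57, 7.01, 6.81 and 5.51 after PHx in Ppara△Hep. The PHx arrays of Sqle lay below the sham arrays in each genotype, at differences of -0.96 ± 0.24 and -1.10 ± 0.24 (limma adjusted p = 0.00652 and 0.00251). Lanosterol synthase, Lss, changed by -0.98 ± 0.26 in Pparafl/fl and -1.45 ± 0.26 in Ppara△Hep. The difference between the genotypes' changes for Lss was -0.48 ± 0.36, with a 95% interval of -1.25 to 0.30, and was not called (limma adjusted p = 0.663).

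From lanosterol to cholesterol, 5 of 6 measured enzymes fell in Pparafl/fl livers and 6 of 6 in Ppara△Hep livers, with medians of -0.80 and -0.99. Cyp51, the lanosterol demethylase, read 8.22, 8.20, 8.26 and 8.19 in Pparafl/fl sham and 6.91, 6.47, 6.33 and 6.95 in Pparafl/fl PHx arrays. In Ppara△Hep it read 8.09, 7.89, 8.39 and 8.44 after sham and 6.88, 7.44, 6.80 and 6.03 after PHx. The sham and PHx arrays were separate in each genotype, with 34.0% and 37.5% of the sham level left after PHx. Sc5d, a sterol desaturase late in the pathway, changed by -1.31 ± 0.30 and -1.30 ± 0.30. Nsdhl, which acts in removing the methyl groups of lanosterol, changed by -0.79 ± 0.16 and -0.66 ± 0.16, and Dhcr7, which makes cholesterol from 7-dehydrocholesterol, by -0.81 ± 0.19 and -1.18 ± 0.19. Ebp, the sterol isomerase, changed by -0.43 ± 0.09 in Pparafl/fl and -0.69 ± 0.09 in Ppara△Hep.

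Hsd17b7, which reduces the keto group of sterol intermediates during demethylation, was the 1 enzyme not called in Pparafl/fl livers. It read 7.54, 7.26, 7.19 and 7.36 on Pparafl/fl sham and 7.90, 7.24, 7.17 and 7.63 on Pparafl/fl PHx arrays, ranges that overlap. In Ppara△Hep livers it read 7.25, 7.01, 7.45 and 7.42 after sham and 6.26, 6.57, 6.82 and 6.30 after PHx, with every PHx array below every sham array. The log2 difference was 0.15 ± 0.16 in Pparafl/fl (95% interval -0.20 to 0.49, limma adjusted p = 0.512) and -0.79 ± 0.16 in Ppara△Hep (limma adjusted p = 0.0018).

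For non-overlap of arrays, 14 of 15 enzymes in each genotype had every PHx array below every sham array. Over all 26 members this held for 18 in Pparafl/fl and 19 in Ppara△Hep, and the reverse, every PHx array above every sham array, for 1 and 2. Of all genes tested, 19.9% were below and 12.0% above in this sense in Pparafl/fl, and 16.2% and 15.8% in Ppara△Hep.

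The enzymes were also followed from array to array. Taken as the mean of the 15 enzymes minus their Pparafl/fl sham mean, the Pparafl/fl PHx arrays read -0.77, -1.18, -1.35 and -0.93, and the Ppara△Hep PHx arrays -0.99, -0.66, -1.03 and -1.70. Ppara△Hep PHx array 4 held the lowest value of its group for 13 of 15 enzymes, and Ppara△Hep PHx array 2 the highest for 11. Pparafl/fl PHx array 3 was lowest for 11 and array 1 highest for 13. The Ppara△Hep sham arrays read 0.05, -0.23, 0.25 and 0.29, and array 2 was lowest for 15 of 15 enzymes. The Pparafl/fl sham arrays read between -0.04 and 0.04, and no 1 of them was lowest for more than 6 enzymes. The median SD of the enzymes was 0.07 in Pparafl/fl sham, 0.29 in Pparafl/fl PHx, 0.25 in Ppara△Hep sham and 0.44 in Ppara△Hep PHx, against 0.09, 0.11, 0.09 and 0.11 over all genes. Those all-gene values include genes of low level, so they are not a like-for-like reference for the enzymes. The standard errors above share 1 spread per gene over the 4 groups, so they are too wide for the tightest group and too narrow for the widest. Without Ppara△Hep PHx array 4 the median change of the enzymes in Ppara△Hep was -0.97 and 15 of 15 were still called lower.

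Promoter sequences of the members were read from RefSeq (GRCm38.p6), from 250 bases before to 50 bases after each annotated start, for the 24 of 30 members that have such a window, 31 windows in all. They were searched on both strands for the sterol regulatory element TCACNCCAC, which SREBP binds. They were also searched for CCAAT, the NF-Y motif known to sit beside it, for the Sp1 motif GGGCGG and for the E-box CACGTG. The element was found in 1 of 24 members (4.17%), Hmgcs1, against 1.44% of all 27025 genes. It read TCACCCCAC, starting 137 bases before the start. By window this was 1 of 31 (3.23%), against 1.24% of all 32851 windows. CCAAT was found in 21 of 24 members (87.5%), against 41.1% of all 27025 genes. It was in 12 of the 12 measured enzymes with a window and in 7 of 9 other measured members with a window. The Sp1 and E-box motifs were also more frequent in members than in all genes. GGGCGG was found in 19 of 24 members (79.2%) against 38.2%, and CACGTG in 7 of 24 (29.2%) against 8.09%. The element in Hmgcs1 did not overlap a CCAAT match, and no other member window held the element, so overlap could be seen nowhere else. A match is a description of the letters and not of binding, and its absence says only that these letters are not in this window. The windows below are shown 5′ to 3′ on the gene's strand, with matches to TCACNCCAC or CCAAT on either strand in capitals. Hmgcs1 is shown for its sterol regulatory element and Mvk for the most CCAAT matches of the members (5). Insig1 is shown as a sensing gene that fell in both genotypes, and Hsd17b7 and Nceh1 because they differed between the genotypes.
Hmgcs1, chr13:119690101-119690400, plus strand: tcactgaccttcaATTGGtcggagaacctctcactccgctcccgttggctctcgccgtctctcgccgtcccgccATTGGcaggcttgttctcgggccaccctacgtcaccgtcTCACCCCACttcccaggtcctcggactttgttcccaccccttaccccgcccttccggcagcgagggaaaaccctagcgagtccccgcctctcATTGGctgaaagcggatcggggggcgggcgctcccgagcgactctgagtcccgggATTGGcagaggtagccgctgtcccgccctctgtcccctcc
Mvk, chr5:114444019-114444318, plus strand: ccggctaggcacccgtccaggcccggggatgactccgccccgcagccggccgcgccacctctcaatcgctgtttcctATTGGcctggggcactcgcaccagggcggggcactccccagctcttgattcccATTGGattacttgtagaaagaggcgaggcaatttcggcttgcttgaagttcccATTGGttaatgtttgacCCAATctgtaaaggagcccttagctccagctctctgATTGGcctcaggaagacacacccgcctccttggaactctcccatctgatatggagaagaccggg
Insig1, chr5:28071162-28071461, plus strand: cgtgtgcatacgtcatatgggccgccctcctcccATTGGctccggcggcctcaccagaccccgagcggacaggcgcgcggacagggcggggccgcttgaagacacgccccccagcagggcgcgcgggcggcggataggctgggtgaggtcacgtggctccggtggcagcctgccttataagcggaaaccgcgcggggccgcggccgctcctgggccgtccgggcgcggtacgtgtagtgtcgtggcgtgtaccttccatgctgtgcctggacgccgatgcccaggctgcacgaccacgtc
Hsd17b7, chr1:169969156-169969455, minus strand: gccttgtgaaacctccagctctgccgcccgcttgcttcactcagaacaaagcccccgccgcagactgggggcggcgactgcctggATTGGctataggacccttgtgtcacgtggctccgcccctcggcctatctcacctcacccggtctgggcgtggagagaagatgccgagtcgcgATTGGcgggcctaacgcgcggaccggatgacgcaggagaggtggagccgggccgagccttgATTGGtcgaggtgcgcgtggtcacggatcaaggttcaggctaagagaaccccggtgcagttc
Nceh1, chr3:27182754-27183053, plus strand: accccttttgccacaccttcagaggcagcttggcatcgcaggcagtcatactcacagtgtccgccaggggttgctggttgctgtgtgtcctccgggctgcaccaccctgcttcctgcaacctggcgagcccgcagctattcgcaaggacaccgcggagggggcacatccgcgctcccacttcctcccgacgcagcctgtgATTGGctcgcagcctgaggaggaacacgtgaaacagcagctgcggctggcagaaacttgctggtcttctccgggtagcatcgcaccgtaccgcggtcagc

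Of the 4 genes of sterol sensing and control, Insig1 and Srebf2 fell and Insig2 rose in both genotypes, and Scap fell in Ppara△Hep. Insig1, itself a target of SREBP2, read 8.11, 8.77, 8.25 and 8.45 in Pparafl/fl sham and 6.84, 6.53, 7.49 and 6.80 in Pparafl/fl PHx arrays. In Ppara△Hep it read 8.69, 8.35, 8.65 and 8.50 after sham and 6.71, 7.24, 7.33 and 7.32 after PHx. The groups were separate in each genotype, with 35.9% and 38.0% of the sham level left after PHx (limma adjusted p = 5.08e-05 and 7.77e-05). Its window above holds 1 CCAAT match.

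Insig2, the second retention protein, moved the other way. It read 7.82, 7.39, 6.96 and 7.40 in Pparafl/fl sham and 7.90, 9.29, 9.62 and 7.79 in Pparafl/fl PHx arrays, with PHx arrays 2 and 3 far above 1 and 4, and array 4 within the sham range. In Ppara△Hep it read 7.27, 7.32, 7.37 and 7.46 after sham and 7.66, 8.60, 9.27 and 9.43 after PHx, with every PHx array above every sham array. The differences were 1.26 ± 0.41 and 1.39 ± 0.41 (limma adjusted p = 0.029 and 0.0181). The Pparafl/fl call was lost when any 1 of 5 arrays was left out (sham 2, 3 or 4, or PHx 2 or 3), with an adjusted p up to 0.0922, and with quantile normalization (0.0502), and the Ppara△Hep call without PHx array 3 or 4 (0.0553 and 0.0619).

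Srebf2 read 5.89, 5.71, 5.68 and 5.89 in Pparafl/fl sham and 5.34, 5.003, 5.24 and 5.29 in Pparafl/fl PHx arrays, and in Ppara△Hep 5.77, 5.66, 5.99 and 6.03 after sham and 5.07, 5.23, 5.30 and 4.76 after PHx. Its PHx arrays were all below its sham arrays, at differences of -0.57 ± 0.12 and -0.77 ± 0.12 (limma adjusted p = 0.00186 and 0.000165), smaller than those of 13 enzymes in Pparafl/fl. Scap, the escort, differed by -0.21 ± 0.10 in Pparafl/fl (95% interval -0.42 to -0.0016), which was not called (limma adjusted p = 0.113), and changed by -0.47 ± 0.10 in Ppara△Hep (limma adjusted p = 0.00207). In Pparafl/fl it too was called lower under 4 alternatives: array medians subtracted (adjusted p = 0.0129), quantile normalization (0.0126), array weights (0.0463) and without PHx array 3 (0.0429).

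**Figure D3:**
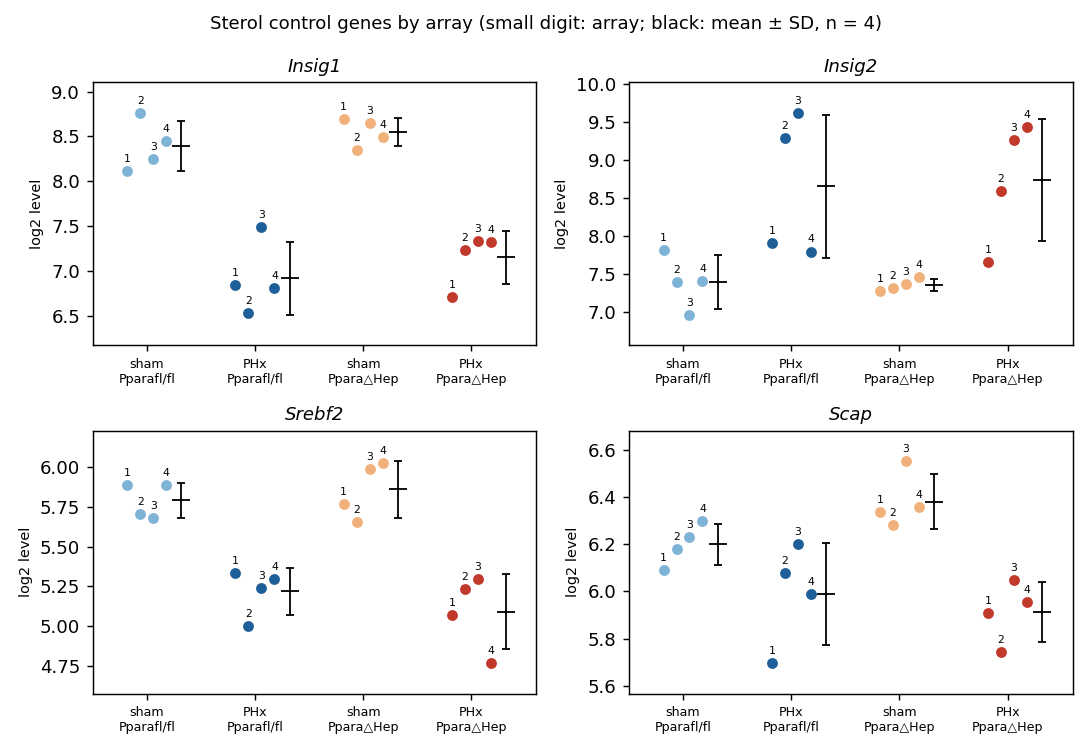
Log2 level of Insig1, Insig2, Srebf2 and Scap on each of the 16 arrays, 1 point per array with its number, and the mean ± SD of each group in black (n = 4). Insig1 and Srebf2 lie lower on every PHx array of both genotypes, and the Insig2 PHx arrays of Pparafl/fl run from 7.79 to 9.62.

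Of the 7 sterol handling genes, 2 were called lower and 1 higher in each genotype, with medians of -0.16 and -0.25. These are few genes, and all genes were called lower in 20.8% and 17.5% and higher in 11.9% and 14.8%, in Pparafl/fl and Ppara△Hep, so the counts do not set the list apart. Stard4, a soluble carrier that moves cholesterol between membranes, read 5.13, 5.37, 5.30 and 5.49 in Pparafl/fl sham and 4.72, 4.48, 4.27 and 4.78 in Pparafl/fl PHx arrays. In Ppara△Hep it read 5.47, 5.40, 5.47 and 5.39 after sham and 4.61, 4.86, 4.49 and 4.18 after PHx. Its PHx arrays were below its sham arrays in both, at -0.76 ± 0.13 and -0.90 ± 0.13 (limma adjusted p = 0.000579 and 0.000125).

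Abcg5 and Abcg8 encode the subunits of the transporter that exports sterols into bile, and they lie head to head on chromosome 17. Abcg5 read 5.59, 6.02, 6.000 and 6.27 in Pparafl/fl sham and 5.85, 6.36, 6.66 and 6.35 in Pparafl/fl PHx arrays, and in Ppara△Hep 5.89, 5.39, 5.88 and 5.16 after sham and 5.91, 6.15, 6.09 and 6.57 after PHx. It rose in Ppara△Hep, by 0.60 ± 0.20 (limma adjusted p = 0.0364), with every PHx array above every sham array, a call lost with 5 of the 16 arrays left out singly (adjusted p up to 0.119), with array medians subtracted (0.0773) and in the fit on only the 2 groups compared (0.0502). In Pparafl/fl its difference was 0.34 ± 0.20, not called (limma adjusted p = 0.223). Abcg8 read 5.63, 5.67, 5.97 and 6.09 in Pparafl/fl sham and 5.18, 5.30, 5.54 and 5.38 in Pparafl/fl PHx arrays, and in Ppara△Hep 5.72, 5.39, 5.71 and 5.43 after sham and 5.44, 5.07, 5.24 and 5.49 after PHx. It fell in Pparafl/fl, with a difference of -0.49 ± 0.12 (limma adjusted p = 0.00747), and differed by -0.25 ± 0.12 in Ppara△Hep, not called (limma adjusted p = 0.132) except with array medians subtracted (0.0136). The 2 transcripts of the pair thus had opposite signs in each genotype.

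Abca1, which loads cholesterol onto apolipoprotein particles, was not called in either genotype. It read 7.93, 7.62, 7.32 and 7.49 in Pparafl/fl sham and 7.64, 8.12, 8.47 and 7.48 in Pparafl/fl PHx arrays. In Ppara△Hep it read 7.59, 7.48, 7.62 and 7.72 after sham and 7.12, 6.93, 7.93 and 8.70 after PHx. Its arrays overlapped in Pparafl/fl, while in Ppara△Hep PHx arrays 1 and 2 lay below the sham range and arrays 3 and 4 above it. Its differences were 0.34 ± 0.31 and 0.07 ± 0.31, with 95% intervals of -0.32 to 0.997 and -0.59 to 0.73. Lcat, the plasma enzyme that esterifies cholesterol, was lower after PHx in Ppara△Hep, with a difference of -0.39 ± 0.14 (limma adjusted p = 0.046), with overlapping arrays, and without Ppara△Hep PHx array 2 its difference was -0.23. That call was lost in 13 of 16 single-array omissions, with cyclic loess (adjusted p = 0.0969) and in the fit on only the 2 groups compared (0.096). In Pparafl/fl the difference for Lcat was -0.16 ± 0.14 (limma adjusted p = 0.41).

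Scarb1, the receptor that takes up HDL cholesterol, read 6.27, 6.20, 6.17 and 6.25 in Pparafl/fl sham and 5.48, 6.21, 6.35 and 5.49 in Pparafl/fl PHx arrays. In Pparafl/fl, PHx arrays 1 and 4 lay below the sham range while arrays 2 and 3 lay at it or above. In Ppara△Hep it read 6.27, 6.22, 6.44 and 6.39 after sham and 5.72, 5.96, 5.98 and 5.995 after PHx, with every PHx array below every sham array. Neither difference was called, at -0.34 ± 0.16 and -0.42 ± 0.16 (limma adjusted p = 0.121 and 0.0589). Both sit near the threshold: Scarb1 was called lower in Pparafl/fl under 4 alternatives, at adjusted p of 0.0179 (without Pparafl/fl PHx array 3) to 0.0385 (array weights), and in Ppara△Hep under 7, at 0.00563 (only the 2 groups compared) to 0.0462 (without Pparafl/fl PHx array 2).

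Nceh1, a hydrolase that frees cholesterol from its stored esters, rose with PHx in Pparafl/fl. It read 3.79, 4.002, 3.96 and 3.81 in Pparafl/fl sham and 5.43, 4.90, 4.65 and 5.55 in Pparafl/fl PHx arrays. The Ppara△Hep arrays read 3.34, 3.71, 3.48 and 3.27 after sham and 3.90, 3.72, 3.74 and 3.70 after PHx, so that the groups met at 3.70 to 3.71. The rise was 1.25 ± 0.16 in Pparafl/fl, 2.37 times the sham level (limma adjusted p = 3.84e-05), and the difference was 0.32 ± 0.16 in Ppara△Hep (95% interval -0.02 to 0.66, limma adjusted p = 0.143), not called except in the fit on only the 2 groups compared (0.041).

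The genotypes were compared within each operation, to ask how these levels depended on hepatocyte PPARα. After sham no member was called among 26 (limma, 0.0133% of all genes called), and 2 had an unadjusted p below 0.05, Nceh1 and Abcg8. After PHx 2 of 26 were called lower in Ppara△Hep, Nceh1 and Hsd17b7, against 0.143% of all genes, and none higher. In the mean over both operations 1 was called lower, Nceh1, against 0.219% of all genes. The PHx and sham comparisons above share these same arrays. Median genotype differences were 0.06 after sham and -0.02 after PHx over the 26 members, and -0.02 and 0.01 over all genes.

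**Figure D4:**
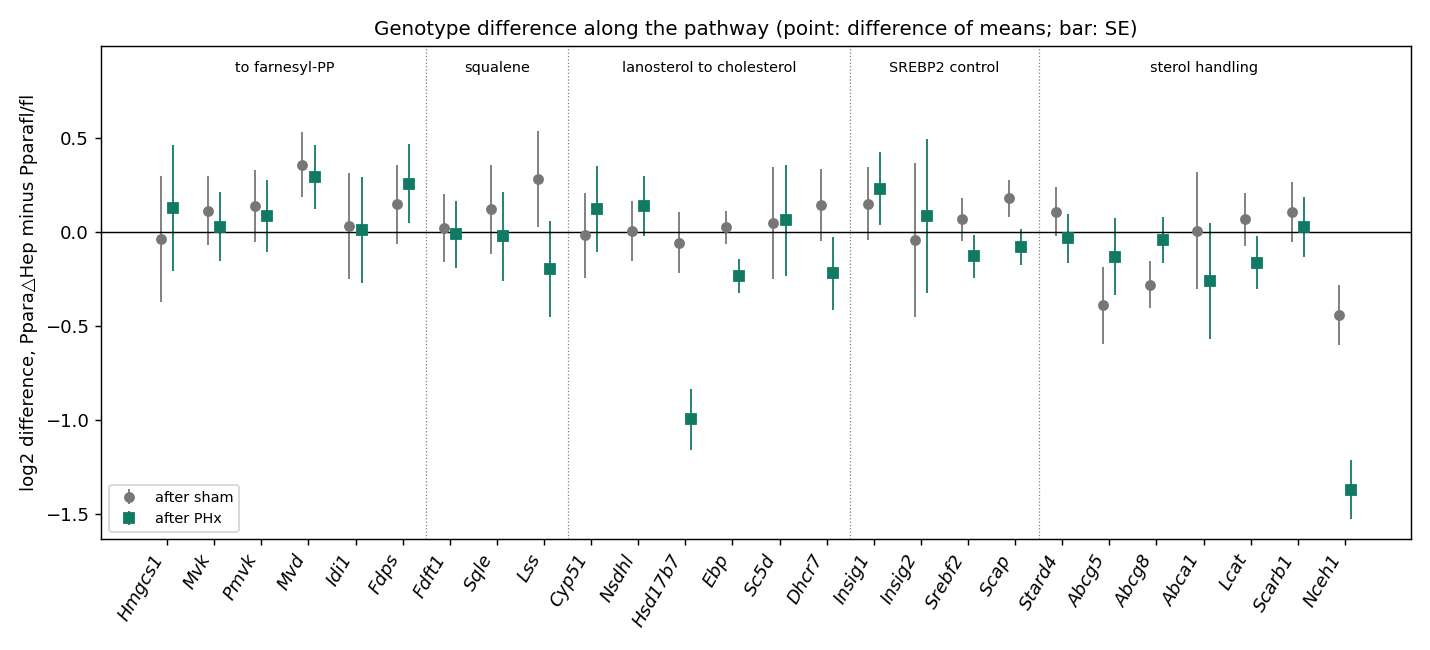
Log2 difference of Ppara△Hep against Pparafl/fl for each of the 26 measured members, in pathway order, after sham (circles) and after PHx (squares); bars are the SE from limma. Most members lie near 0 after both operations, while Hsd17b7 at -0.99 and Nceh1 at -1.37 lie below it after PHx.

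Nceh1 after PHx differed by -1.37 ± 0.16 in Ppara△Hep against Pparafl/fl, 38.7% of the Pparafl/fl level, with a 95% interval of -1.71 to -1.03 (limma adjusted p = 0.00184). Every Ppara△Hep array was below every Pparafl/fl array. The same comparison after sham gave -0.44 ± 0.16, also without overlap of arrays (limma adjusted p = 0.453), and the mean over both operations -0.90 ± 0.11 (limma adjusted p = 0.00151). The single-gene exact permutation test, two-sided, gave p = 0.0286 after PHx, the smallest that 4 against 4 arrays can give. The call after PHx held with each of the 16 arrays left out in turn, at adjusted p up to 0.0123. With a fit on the 8 PHx arrays alone its adjusted p was 0.306, and no gene of 30142 was called in that fit.

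Hsd17b7 after PHx differed by -0.99 ± 0.16 in Ppara△Hep against Pparafl/fl, 50.2% of the Pparafl/fl level, with a 95% interval of -1.34 to -0.65 (limma adjusted p = 0.0216, exact permutation p = 0.0286). All 4 Ppara△Hep arrays, at 6.26 to 6.82, lay below all 4 Pparafl/fl arrays, at 7.17 to 7.90. After sham the difference was -0.05 ± 0.16, with overlapping arrays. Leaving out any of 5 PHx arrays (Ppara△Hep 1, 2 or 4, or Pparafl/fl 1 or 4) ended the call after PHx, at adjusted p of 0.0561 to 0.0894, and in the fit on the 8 PHx arrays alone the adjusted p was 0.624.

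**Figure D5:**
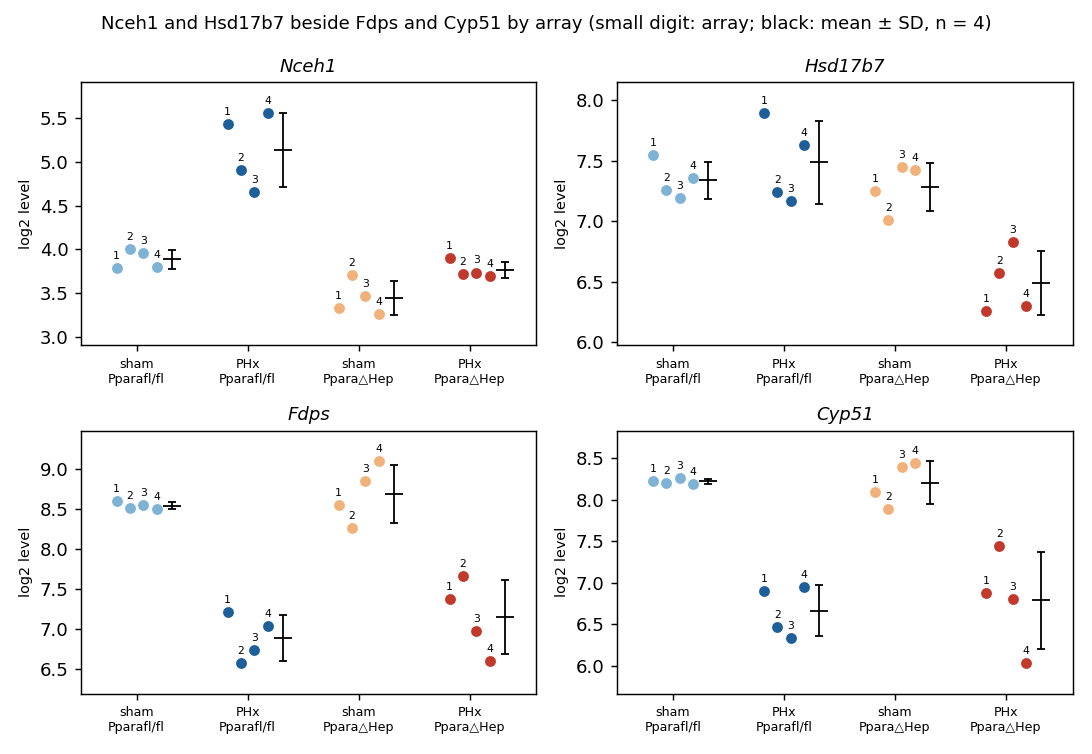
Log2 level of Nceh1 and Hsd17b7, beside Fdps and Cyp51, on each of the 16 arrays, 1 point per array with its number, and the mean ± SD of each group in black (n = 4). Nceh1 is highest in the Pparafl/fl PHx arrays, from 4.65 to 5.55, and Hsd17b7 is lowest in the Ppara△Hep PHx arrays, from 6.26 to 6.82.

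A test of whether the PHx change itself differed between genotypes called no member and no gene of all 30142 (0.00%, limma). Hsd17b7 and Nceh1 had the largest differences of change among the 26 members, -0.94 ± 0.23 and -0.93 ± 0.22, with 95% intervals of -1.43 to -0.45 and -1.41 to -0.45 (limma adjusted p = 0.325 and 0.325), and were the 2 members with an unadjusted p below 0.05. No member was called for this difference under any alternative run. The different PHx calls of Hsd17b7, Nceh1, Abcg5, Abcg8, Lcat and Scap in the 2 genotypes are therefore not shown to differ at this threshold. For the 14 enzymes other than Hsd17b7, the genotype intervals after PHx ran from a low of -0.74 (Lss) to a high of 0.85 (Hmgcs1) on the log2 scale, and none of these differences was called. The interval for Ebp, -0.42 to -0.04, lay below 0 (limma adjusted p = 0.557). Mvd, the decarboxylase, was higher in Ppara△Hep sham than in Pparafl/fl sham on every array, at 6.22, 6.18, 6.18 and 6.25 against 5.74, 5.87, 5.74 and 6.04, a difference of 0.36 ± 0.17 that was not called (limma adjusted p = 0.55).

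Other genes of the same pathway, listed by name and not members, fell in part. Of 15 named genes of cholesterol synthesis and SREBP2, 11 were measured and 7 fell in each genotype, with medians of -0.56 in Pparafl/fl and -0.76 in Ppara△Hep, and none rose. Acss2, which makes acetyl-CoA from acetate, changed by -1.25 ± 0.16 and -1.31 ± 0.16, and Aacs, which activates acetoacetate for lipid synthesis, by -1.07 ± 0.16 and -0.96 ± 0.16. Acly, which supplies cytosolic acetyl-CoA from citrate, changed by -0.83 ± 0.22 and -0.83 ± 0.22, and Mbtps1, the protease that first cuts SREBP, by -0.39 ± 0.07 and -0.51 ± 0.07. Tmem97, Pcyt2 and Acat1 were the other 3 that fell in both. Of 25 named genes of sterol uptake, storage and export, 21 were measured: 9 fell and 1 rose in Pparafl/fl, with a median of -0.26, and 12 fell and 1 rose in Ppara△Hep, with a median of -0.35. The SREBP1 and fatty acid synthesis list, the neighbouring branch of lipid synthesis, had 12 of 13 genes measured, of which 3 fell in Pparafl/fl and 8 in Ppara△Hep, with medians of -0.19 and -0.65 and none higher. Of all genes, 20.8% were called lower and 11.9% higher in Pparafl/fl, and 17.5% and 14.8% in Ppara△Hep, with medians of -0.04 and 0.01. The 3 of 12 genes in Pparafl/fl thus lie near the share of all genes. The counts of these lists were not tested against those shares or between the genotypes.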

How the data were processed

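Liver RNA was measured on 16 Affymetrix arrays in 4 groups of 4. The deposited log2 values were made with RMA, a background correction, between-array normalization and probe summary, per the submitters' processing notes. Which software and genome build were used is not given in the sources used here. Low levels sit near background, where differences are understated, and the number of arrays limits the precision.

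Of 72688 probe sets, 30604 carry 1 gene symbol in the platform annotation given here, 2146 carry several and 39938 are unnamed here. Entrez identifiers updated 827 symbols to those of a RefSeq table (GRCm38.p6), which was used for names and promoter windows. The probe set with the highest mean over the arrays stood for a gene (355 genes had several), leaving 30142 genes. Probe sets with several symbols named no gene.

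All genes were fitted together with limma 3.58.1 in R 4.3.3 (data.table version 1.17.8), with 1 mean per group, 12 residual degrees of freedom and default eBayes. P-values were adjusted by Benjamini-Hochberg across all 30142 genes, and a gene was called below 0.05. Single genes were also given a two-sided exact permutation test over arrays, with scipy 1.17.1. The scripts were tested on simulated data. Every member is named, by its role in the pathway. The members and the other lists were chosen with earlier results of these data known. Alternatives were other scalings (cyclic loess, array medians, quantile), a filter on low levels, the mean of a gene's probe sets, eBayes with trend and robust, array weights, a fit on only the 2 groups compared, a block from the title number without its last digit, and each array left out. Arrays were not paired.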

Additional observations from a re-analysis of the deposited data

Results flagged for a closer look

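Within groups of 4 arrays, 1 array stood far from the other 3 for 4 of the 104 combinations of member and group tested (3.85%), by Dixon's criterion at the 95% level; chance alone gives about 1 in 20. Lss read 6.51 on Pparafl/fl sham array 1, above the other 3 arrays of that group at 6.38 to 6.39. Ebp read 5.37 on Pparafl/fl sham array 3, below the others at 5.48 to 5.501. Insig1 read 6.71 on Ppara△Hep PHx array 1, below the others at 7.24 to 7.33. Scarb1 read 5.72 on Ppara△Hep PHx array 1, below the others at 5.96 to 5.995.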

How the results depend on the processing

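The enzyme calls with PHx, 14 of 15 lower in Pparafl/fl and 15 of 15 in Ppara△Hep, were the same in number under the other scalings, the low-level filter, the mean of probe sets, eBayes with trend and robust, array weights, the fit on only the 2 groups compared and with each array left out. The block from the title number was run for the genotype comparisons and their difference only. There the members called numbered 0 after sham, 2 after PHx, 0 for the difference and 1 for the mean of both operations, as without it. Only Pparafl/fl PHx array 2 shared such a block with sham arrays, so the PHx results were not checked against it. The enzymes' medians with PHx ran from -0.98 (cyclic loess) to -1.20 (array medians) in Pparafl/fl, and from -0.97 (without Ppara△Hep PHx array 4) to -1.33 (array medians, or without Ppara△Hep sham array 2) in Ppara△Hep. Subtracting array medians moved the median of all genes from -0.04 to -0.15 in Pparafl/fl and from 0.01 to -0.14 in Ppara△Hep. The median of the 26 members in Pparafl/fl moved from -0.80 to -0.67 with cyclic loess, -0.91 with array medians and -0.94 with quantile normalization, which called 12964 genes lower and 2436 higher.

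Members called between genotypes after PHx numbered 0 in place of 2 in the fit on only the 2 groups compared, and 1 to 2 with an array left out. For the mean over both operations, 2 were called in place of 1 with array weights, where Hsd17b7 had an adjusted p of 0.0497, and 1 to 2 with an array left out, Hsd17b7 reaching 0.0415 without Pparafl/fl PHx array 3. The 63 single-gene results tallied, 45 called and 18 not, were all 26 members with PHx in each genotype and 11 genotype results (4 after sham, 2 after PHx, 3 for the difference and 2 for the mean). Of their 1518 pairs with an alternative, 1462 stayed on their side of the threshold. The call was lost in 37, on 6 of the 45 results: Insig2 in both genotypes, Abcg5 and Lcat in Ppara△Hep, and Nceh1 and Hsd17b7 between genotypes after PHx. It was gained in 19, on 6 of the 18: Scarb1 in both genotypes, Scap in Pparafl/fl, Abcg8 and Nceh1 in Ppara△Hep, and Hsd17b7 in the mean over both operations. No called value changed sign. No paired analysis was possible because the labels give no replicate number shared between groups.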
